A study of Mus musculus with 3 samples.

Results

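The 10 genes described here code for secreted Wnt antagonists: the secreted frizzled-related proteins Sfrp1, Sfrp2, Sfrp4 and Sfrp5 and their relative Frzb, the Dickkopf proteins Dkk1, Dkk2 and Dkk3, Wif1 and Sost. They were chosen by name, and all 10 were found once among the 32285 genes of the count tables. The study profiled single cells from the callus of fractured femurs of C57BL/6 mice at day 7, day 10 and day 14 after the fracture, with 1 library per day and no other treatment. The cells had been sorted as live cells lacking CD45, CD31 and TER119, surface proteins of blood, endothelial and erythroid cells. The labels give neither the age of the animals nor how many were pooled per library.

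Members were followed in 5 classes of cells without a UMI (unique molecular identifier, 1 captured transcript) of Ptprc, the gene for CD45. A class held the cells high for exactly 1 of 5 markers: Aspn, a matrix gene of fibrous stroma; Cnmd, a gene of chondrocytes; Col10a1, the collagen of hypertrophic chondrocytes; Ifitm5, a gene of osteoblasts; or Rgs5, a gene of pericytes. High meant at least 3 UMIs and a level of at least 25% of the 99th percentile of that marker. The classes are called by their marker. They held 979 and 2457 Aspn-high cells at day 10 and day 14, respectively, 2658 and 1570 Cnmd-high cells, 357 and 847 Col10a1-high cells, 117 and 354 Ifitm5-high cells, and 69 and 192 Rgs5-high cells. Each class's marker list, which includes the marker that chose the cells, had its highest summed level in the class of that name on both days. The Col10a1 list separated 2 classes least, at 94485.8 and 89592.8 CPM in Col10a1-high cells and 74915.5 and 75909.8 CPM in Ifitm5-high cells. The Ifitm5 list stood at 60848.1 and 54626.1 CPM in its class and at 20923.4 and 19188.7 CPM in Aspn-high cells, the next.

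Levels are given as CPM, a member's UMIs in all cells of a class together scaled to the total UMIs of that class. UMIs are read at the 3' end and do not scale with transcript length, so they compare genes only as captured molecules. Brackets hold 95% intervals, exact Poisson for a CPM and exact binomial (Clopper-Pearson) for a share or a ratio, and they cover counting error only. With 1 library per day no difference between days could be tested against a spread between animals, and day and library cannot be told apart. Cells within the limits had a median of 5056, 17370 and 15802 UMIs at days 7, 10 and 14, and the libraries shared 29 to 42 cell barcodes pairwise. The day 7 library went against its sort, since 6570 of its 7017 cells held a Ptprc UMI. It left 74 cells in the 5 classes, so day 7 values are given with their counts and enter no comparison between days or classes. The likeness of genes at the end uses the 55 Cnmd-high cells of day 7 as 1 of its groups. At day 14 the 98 cells with at least 2 Ptprc UMIs and no high marker, which should lack these genes, still held Wif1 at 65.7 CPM (50.7 to 83.8), Frzb at 53.6 CPM (40.2 to 70.1), Sfrp4 at 10.1 CPM and Dkk3 at 8.09 CPM, and each other member at 3.03 CPM or less. In these reference cells Wif1 was seen in 9 cells and 1 cell held 39 of its 65 UMIs, and Frzb in 13 cells, 1 of which held 25 of its 53 UMIs. At day 10 there were 3 such cells, too few for a reference level.

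Wnt proteins signal by binding frizzled receptors and, in the canonical branch, the co-receptors Lrp5 and Lrp6, which stabilises beta-catenin. Secreted frizzled-related proteins and Wif1 bind the Wnt ligands themselves, whereas Dkk1, Dkk2 and sclerostin, the product of Sost, bind the co-receptors. Dkk3 is a divergent member of its family whose part in Wnt signalling is less settled. In the skeleton sclerostin and Dkk1 are known as brakes on bone formation, and Frzb is known from developing cartilage.

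All 10 genes are protein-coding. On the GRCm38 build Sfrp5 (chr19:42197971-42202252) and Dkk1 (chr19:30545863-30549665) share a chromosome, as do Sfrp2 (chr3:83766321-83774316) and Dkk2 (chr3:132085292-132180304). Frzb is at chr2:80411970-80447625, Wif1 at chr10:121033960-121100650 and Sost at chr11:101962458-101967015. Sfrp1 is at chr8:23411502-23449632, Sfrp4 at chr13:19623104-19632994 and Dkk3 at chr7:112116017-112159057. Sfrp2 overlaps Gm26771 on the opposite strand, and whether the counting used strand is not given in the sources used here. The other 9 members overlap no annotated gene.

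RefSeq promoter sequences, 250 bases before to 50 after the start of a gene (GRCm38.p6), were at hand for 7 of the 10 members: Sfrp2, Sfrp5, Frzb, Dkk1, Dkk2, Wif1 and Sost. A member of this family can itself be a target of Wnt signalling, so the letters TCAAAG, the core bound by TCF and LEF factors, were searched on both strands. The Runx site AACCACA, which does not overlap that core, was searched in the same way. The TCF and LEF core lies in 16.0% of the 32851 promoters of this length and the Runx site in 5.27%. The core was found 2 times in the Dkk1 promoter and 1 time in that of Frzb, in none of the other 5, and the Runx site in none of the 7. The promoters of Dkk1 (chr19:30549447-30549746, minus strand), Wif1 (chr10:121033754-121034053, plus strand) and Sost (chr11:101966966-101967265, minus strand) are shown because these 3 genes were highest in the same cells, the Ifitm5-high class, and those of Frzb (chr2:80447347-80447646, minus strand) and Sfrp5 (chr19:42202203-42202502, minus strand) because these marked the cartilage classes. Capitals mark the TCF and LEF core on either strand.
Dkk1: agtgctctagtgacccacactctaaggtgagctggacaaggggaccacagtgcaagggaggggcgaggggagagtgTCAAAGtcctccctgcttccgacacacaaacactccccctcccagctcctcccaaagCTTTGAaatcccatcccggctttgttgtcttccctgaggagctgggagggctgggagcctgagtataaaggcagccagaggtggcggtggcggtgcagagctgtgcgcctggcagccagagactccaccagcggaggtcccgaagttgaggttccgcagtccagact
Wif1: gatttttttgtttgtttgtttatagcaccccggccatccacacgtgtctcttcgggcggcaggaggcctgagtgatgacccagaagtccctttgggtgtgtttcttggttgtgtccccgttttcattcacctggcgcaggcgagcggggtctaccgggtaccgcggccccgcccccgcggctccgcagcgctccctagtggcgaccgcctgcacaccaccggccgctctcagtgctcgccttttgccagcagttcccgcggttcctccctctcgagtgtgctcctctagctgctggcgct
Sost: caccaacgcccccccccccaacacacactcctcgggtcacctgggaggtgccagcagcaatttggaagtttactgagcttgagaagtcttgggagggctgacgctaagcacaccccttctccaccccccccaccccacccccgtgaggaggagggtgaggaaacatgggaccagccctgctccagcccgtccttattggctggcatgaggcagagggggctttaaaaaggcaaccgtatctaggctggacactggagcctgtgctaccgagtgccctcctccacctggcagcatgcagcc
Frzb: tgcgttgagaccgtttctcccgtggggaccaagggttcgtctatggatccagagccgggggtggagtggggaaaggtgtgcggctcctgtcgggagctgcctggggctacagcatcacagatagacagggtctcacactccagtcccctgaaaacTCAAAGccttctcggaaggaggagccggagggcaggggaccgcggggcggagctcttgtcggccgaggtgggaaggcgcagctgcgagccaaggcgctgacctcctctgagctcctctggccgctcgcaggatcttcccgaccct
Sfrp5: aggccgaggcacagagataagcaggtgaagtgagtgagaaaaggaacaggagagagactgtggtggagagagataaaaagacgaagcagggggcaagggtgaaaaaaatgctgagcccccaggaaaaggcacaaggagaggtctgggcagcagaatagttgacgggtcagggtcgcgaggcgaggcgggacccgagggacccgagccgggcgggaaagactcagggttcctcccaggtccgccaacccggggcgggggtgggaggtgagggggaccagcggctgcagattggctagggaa
A match is a description of the letters and was not linked to any binding. In these windows the 3 Ifitm5-high members differed, with 2 cores in Dkk1 and none in Wif1 or Sost.

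Most antagonists were highest in the same class on both days, and some shared a class. At day 10, 9 members had at least 50 UMIs in the 2 classes compared and all 9 were at least 2-fold higher in 1 class than in the next, against 16.2% of all 11498 genes tested. At day 14 it was 9 of 10 members, against 17.6% of 12512 genes, and the exception was Sfrp4. For 8 of the 9 members tested on both days the class was the same. The share of all genes with the same class on both days was not counted, so this count has no comparator. Sfrp1, Sfrp2, Dkk2 and Dkk3 were highest in Aspn-high cells, Sfrp5 in Cnmd-high cells, Frzb in Col10a1-high cells and Dkk1 and Wif1 in Ifitm5-high cells. No member was highest in Rgs5-high cells.

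**Figure D1:**
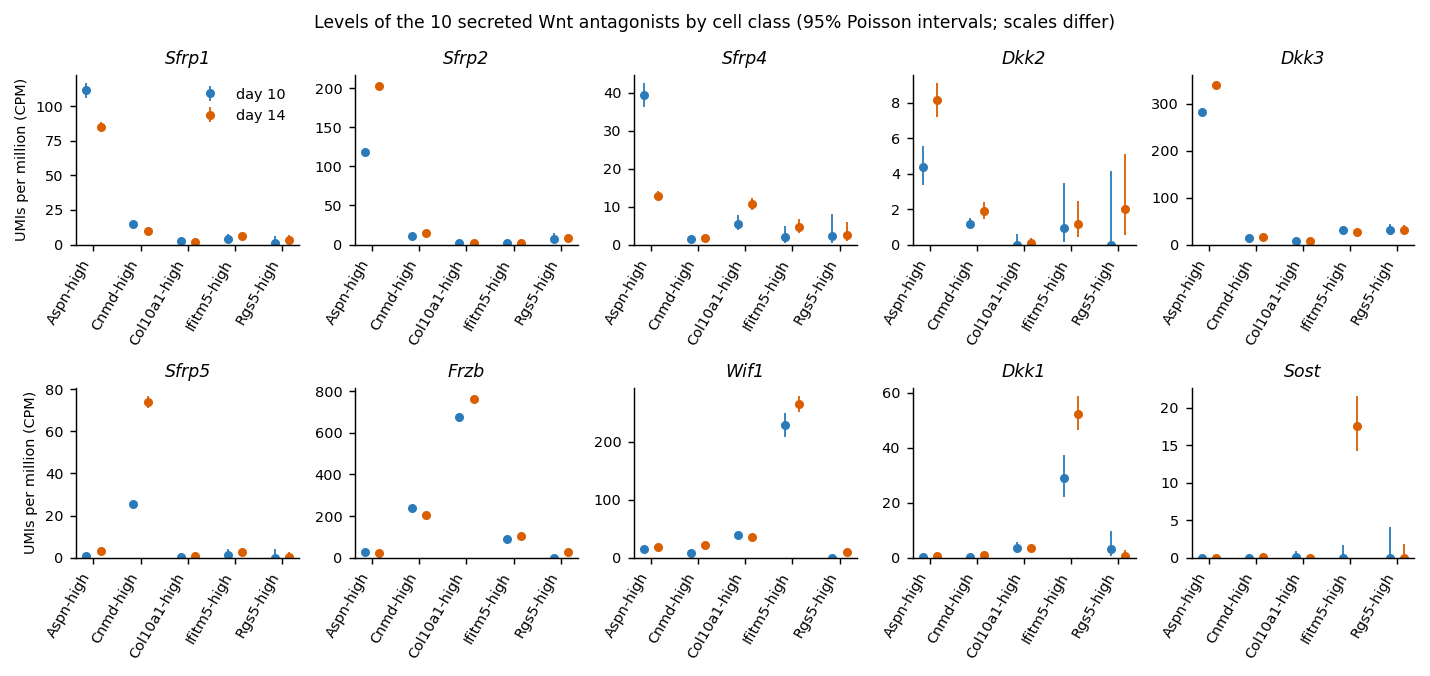
CPM (vertical axis, scales differ) of each antagonist in the 5 classes at day 10 (blue) and day 14 (orange), 1 library per day, with 95% Poisson intervals. The stromal members Sfrp1, Sfrp2, Dkk2 and Dkk3 stand highest in Aspn-high cells, Sfrp5 in Cnmd-high, Frzb in Col10a1-high, and Wif1, Dkk1 and, at day 14, Sost in Ifitm5-high cells.

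Fibrous stroma carried the widest set. Dkk3 was the most abundant member of Aspn-high cells, at 282.9 CPM (274.3 to 291.7) at day 10 and 339.0 CPM (333.0 to 345.2) at day 14. The next class stood at 30.5 CPM at day 10 (Ifitm5-high) and 32.0 CPM at day 14 (Rgs5-high), so that Dkk3 was 3.21 and 3.41 higher on the log2 scale, respectively. A UMI of Dkk3 was found in 89.0% of Aspn-high cells at day 10 and 90.5% at day 14, and in 42.8% and 45.8% of them after each cell was thinned to 2000 UMIs. In the thinned reference cells of day 14 Dkk3 was found in 1.05%.

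Sfrp2, a Wnt-binding protein made by mesenchymal cells, stood at 118.3 CPM (112.7 to 124.0) in Aspn-high cells at day 10 and 202.3 CPM (197.6 to 207.1) at day 14. Its relative Sfrp1 stood at 111.4 CPM (106.0 to 116.9) and 85.1 CPM (82.1 to 88.2), respectively. Cnmd-high cells were next for both, with Sfrp2 at 10.6 and 14.2 CPM and Sfrp1 at 14.5 and 9.69 CPM. Neither passed 8.5 CPM in any of the other 3 classes on either day. A UMI of Sfrp1 was seen in 37.6% and 42.4% of Aspn-high cells and one of Sfrp2 in 35.0% and 42.9% (thinned, 12.7% and 13.7%, and 14.7% and 20.03%), and neither in any of the 95 thinned reference cells. Both were found in a part of the stroma where Dkk3 was found in nearly all of it. At day 10, 1 of 979 Aspn-high cells held 217 of the 1710 Sfrp2 UMIs. The top 5% of Aspn-high cells held 57.8% and 50.2% of the Sfrp2 UMIs at day 10 and day 14, and 47.1% and 38.1% of those of Sfrp1.

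Dkk2, which acts on the co-receptors like Dkk1, was low throughout. It reached 4.36 CPM (3.35 to 5.58) in Aspn-high cells at day 10 and 8.13 CPM (7.21 to 9.13) at day 14, from 63 and 285 UMIs. Col10a1-high cells held 0 of its UMIs at day 10, which allows up to 0.502 CPM by the limit of 3 counts (0.617 CPM by the Poisson interval), and 1 at day 14. Its lead at day 14 over Rgs5-high cells rested on 4 UMIs of the latter, with a log2 ratio of 2.02 (0.65 to 3.91).

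Sfrp4 was the one member whose class was lost. At day 10 it stood at 39.3 CPM (36.1 to 42.7) in Aspn-high cells and 5.52 CPM (3.799 to 7.75) in Col10a1-high cells. At day 14 the 2 classes were side by side, at 12.8 CPM (11.7 to 14.1) and 10.6 CPM (8.97 to 12.4), a log2 ratio of 0.28 (0.01 to 0.55), and both were near the 10.1 CPM (4.85 to 18.6) of the reference cells. That reference level rested on 10 UMIs in 4 of 98 cells, 1 of which held 5. The UMIs of Sfrp4 were concentrated in few cells: at day 10, 29 of 979 Aspn-high cells held 5 or more, 1 cell held 57, and the top 5% of cells held 87.9% of all 568.

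In cartilage Sfrp5 and Frzb were highest in different classes. Sfrp5 was seen almost only in Cnmd-high cells, at 25.7 CPM (24.4 to 27.2) at day 10 and 73.8 CPM (70.9 to 76.8) at day 14, and at no more than 3.37 CPM in any other class. It was seen in 18.7% and 32.0% of Cnmd-high cells (thinned, 4.43% and 11.02%), and the top 5% of these cells held 60.6% and 47.8% of its UMIs. Frzb was high in the same cells, at 237 CPM (233 to 241) and 205 CPM (201 to 210), but was higher still, by 1.51 and 1.89 on the log2 scale, in Col10a1-high cells.

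Frzb in Col10a1-high cells was the highest CPM of any member in these classes at days 10 and 14, 675 CPM (654 to 696) at day 10 and 763 CPM (749 to 777) at day 14, and 94.7% and 94.1% of those cells held a UMI of it (thinned, 67.1% and 67.6%, beside 5.26% of the reference cells at day 14). Its order was the same on both days: Col10a1-high, Cnmd-high, Ifitm5-high (89.7 and 104.8 CPM), then Aspn-high (27.9 and 24.8 CPM). At day 14 the Aspn-high and Rgs5-high levels (24.8 CPM, 23.1 to 26.5, and 26.5 CPM, 19.8 to 34.6) overlapped, and both lay below the 53.6 CPM of the reference cells, where 1 cell held 25 of the 53 UMIs. The other members were low in hypertrophic cells, where Wif1 came next with 38.6 and 36.3 CPM.

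Osteoblasts carried the antagonists known from bone. Wif1, which binds Wnt ligands through its own domain, stood at 228.5 CPM (208.5 to 249.9) in Ifitm5-high cells at day 10 and 264.8 CPM (251.1 to 279.1) at day 14. It was 2.56 and 2.87 higher on the log2 scale than in Col10a1-high cells, and was seen in 69.2% and 61.6% of Ifitm5-high cells (thinned, 33.6% and 28.4%, beside 4.21% of the reference cells at day 14). In the other 4 classes its day 14 level was below that of the reference cells, where 1 cell held 39 of the 65 UMIs. The thinned share in these 4 classes ranged from 1.59% (Rgs5-high) to 6.82% (Col10a1-high, 5.21 to 8.74) at day 14. The interval of the reference share was 1.16 to 10.4. Among Ifitm5-high cells thinned to 2000 UMIs at day 14, 23.0% of those with Wif1 held Phex, a gene of late osteoblasts and osteocytes, against 10.3% of those without, while Bglap2, an osteocalcin gene, went the other way, in 13 of 100 cells against 31.3% (25.7 to 37.5).

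Dkk1 stood at 29.1 CPM (22.3 to 37.4) in Ifitm5-high cells at day 10 and 52.3 CPM (46.3 to 58.8) at day 14, 2.98 and 3.94 above Col10a1-high cells on the log2 scale. In no other class did it pass 3.68 CPM. Sost, a gene of osteocytes, was at 0 of the UMIs of Ifitm5-high cells at day 10, which allows up to 1.43 CPM by the limit of 3 counts (1.76 CPM by the Poisson interval), and at 17.6 CPM (14.2 to 21.6) at day 14. Those 93 UMIs lay in 17 of 354 cells, 6 of which held 5 or more, and the other 4 classes held 5 UMIs of Sost between them at day 14. Sost was thus the rarest member, with 7 UMIs in all cells without Ptprc at day 10 and 125 at day 14.

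In Rgs5-high cells most antagonists were low. No member UMI was found in 73.9% of these cells at day 10 and 63.0% at day 14, against 2.89% to 17.0% in the other 4 classes, which were deeper (medians of 12514 and 9070.5 UMIs against 14388 to 20949). After thinning to 2000 UMIs no member was found in more than 2.99% of them at day 10 and 6.88% at day 14, both for Dkk3. Dkk3 was their leading member with 30.3 CPM (19.96 to 44.1) and 32.0 CPM (24.6 to 40.8), above its level in Cnmd-high and Col10a1-high cells. The endothelial list stood at 60.6 and 41.0 CPM in this class, and its part in these values was not tested.

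At day 7 the pattern could be read only in part. The 55 Cnmd-high cells held Frzb at 240.9 CPM (213.1 to 271.3, 272 UMIs) and Sfrp5 at 18.6 CPM (11.5 to 28.4, 21 UMIs). The 11 Aspn-high cells held Dkk3 and Sfrp2 at 271 CPM each (204 to 353, 55 UMIs each) and Sfrp1 at 147.8 CPM (99.8 to 211.0, 30 UMIs), and also Wif1 at 157.7 CPM (107.9 to 222.6, 32 UMIs). Sost had no UMI in any of the 7017 cells. Of the day 7 barcodes, 280 without Ptprc had over 5000 genes and were outside the limits. With no limits on cells, 152 Cnmd-high cells held Frzb at 176.1 CPM, 16 Col10a1-high cells held it at 962.3 CPM, and 23 Aspn-high cells held Sfrp1 at 386.3 CPM, Wif1 at 355.2 CPM, Dkk3 at 245.7 CPM and Sfrp2 at 182.0 CPM.

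The levels also moved with the markers across all cells without Ptprc. Frzb stood at 66.8 CPM at day 14 in cells with no Col10a1 UMI and at 847 CPM (the highest grade) in cells at over 2 times the class limit, and at 144 and 785 CPM at day 10. Along Aspn it went the other way, from 284 to 32.5 CPM at day 10 and from 420 to 24.6 CPM at day 14. Dkk3 rose with Aspn from 13 to 330 CPM and from 12.4 to 406 CPM, respectively, and fell with Cnmd from 165 to 12.97 CPM and from 191 to 14.1 CPM. Wif1 climbed with Ifitm5 and then levelled, with 21.7 CPM in cells without an Ifitm5 UMI, 215 CPM just under the class limit, and 230 and 219 CPM above it at day 10. The grades use the same libraries as the classes and are not independent of them.

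**Figure D2:**
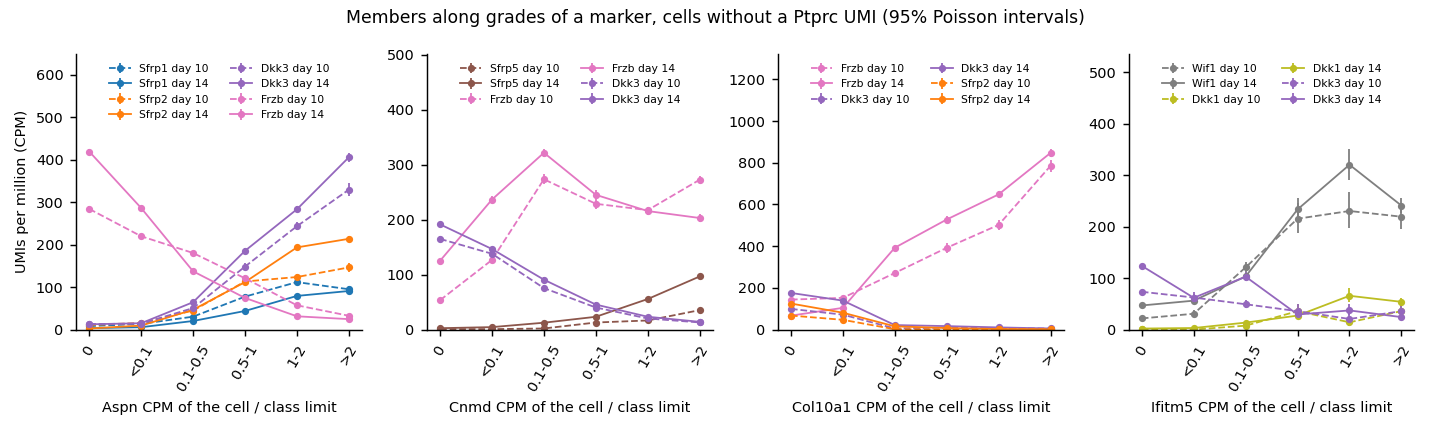
CPM of selected antagonists (vertical axis) in cells without a Ptprc UMI, graded by the cell's level of Aspn, Cnmd, Col10a1 or Ifitm5 relative to the class limit (horizontal axis), at day 10 (dashed) and day 14 (solid), with 95% Poisson intervals. Frzb climbs along Col10a1 and falls along Aspn, Dkk3 does the opposite along Aspn, and Wif1 levels off near the Ifitm5 limit.

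A part of the signal lay outside the classes. Cells high for none of the 5 markers, 2290 at day 10 and 4162 at day 14, held 61.1% and 62.4% of the Wif1 UMIs of all cells without Ptprc, and 59.5% and 57.6% of those of Sfrp4. For Sfrp5 it was 10.7% and 21.0%, and for Frzb 19.1% and 36.3%. For Dkk1 it was 56.1% and 42.0%, for Sfrp2 51.0% and 27.7%, and for Sost 85.7% (of 7 UMIs) and 21.6%. For Dkk2 it was 44.5% and 34.8%, for Sfrp1 39.7% and 26.0%, and for Dkk3 36.8% and 27.3%. Cells high for several markers held Sfrp2 at 160.9 CPM at day 10, above the 118.3 CPM of Aspn-high cells, and at 97.1 CPM at day 14, below their 202.3 CPM. The level of Wif1 in these cells, 58.0 and 93.1 CPM, was below that of Ifitm5-high cells and above that of each other class on both days.

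The next comparison asked which antagonists differed in level between day 10 and day 14 within a class. Of the 28 combinations of member and class with at least 50 UMIs, 6 differed by 2-fold or more. They were 2 of 8 members in Aspn-high cells (3.62% of all genes tested there), 2 of 8 in Cnmd-high cells (3.01%), 0 of 5 in Col10a1-high cells (2.38%), 1 of 5 in Ifitm5-high cells (2.42%) and 1 of 2 in Rgs5-high cells (3.35%). The median log2 ratio of the members tested was 0.28 in Aspn-high, 0.34 in Cnmd-high, 0.16 in Col10a1-high and 0.22 in Ifitm5-high cells, beside -0.02, -0.04, -0.11 and -0.01 for all genes tested.

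Sfrp5 was 2.87-fold higher at day 14 in Cnmd-high cells, a log2 ratio of 1.52 (1.42 to 1.62). In the same cells Wif1 went from 8.06 CPM (7.30 to 8.88) to 22.3 CPM (20.7 to 24.0), a log2 ratio of 1.47 (1.29 to 1.65). The later level was under the 65.7 CPM of the day 14 reference cells, where 1 cell held 39 of the 65 UMIs. Sfrp4 fell by 1.62 on the log2 scale (1.44 to 1.80) in Aspn-high cells, the one call in favour of day 10. With the class limit at 50% of the 99th percentile its log2 ratio was -0.58, which is no call.

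Sost in Ifitm5-high cells was at least 12.3-fold higher at day 14, set against 3 UMIs over the day 10 class. Frzb in Rgs5-high cells was 7.87-fold above the same kind of floor, from 53 UMIs of which 1 cell held 26, again under the level of the reference cells. That call was made in 4 of 10 alternatives, and the log2 ratio was 0.72 with no limits on cells. Sfrp5 in Aspn-high cells went from 0.968 to 3.37 CPM (14 and 118 UMIs), beside 3.03 CPM in the reference cells. The neutrophil list moved between the days as well, from 3.60 to 250.3 CPM in Aspn-high cells, and its part in these ratios was not tested. Without the cells where blood genes took over 1% of the UMIs, the log2 ratio of Sfrp4 was -1.65.

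The most abundant members of the Col10a1-high, Aspn-high and Ifitm5-high classes moved little. Frzb in Col10a1-high cells had a log2 ratio of 0.18 (0.12 to 0.23), Dkk3 in Aspn-high cells 0.26 (0.21 to 0.31) and Wif1 in Ifitm5-high cells 0.21 (0.06 to 0.37). Sfrp2 with 0.77 (0.70 to 0.85) and Sfrp1 with -0.39 (-0.48 to -0.30) went opposite ways in Aspn-high cells, both short of 2-fold. Without the tenth of each class with most UMIs the ratio of Sfrp2 was 1.0, a call. Dkk1 in Ifitm5-high cells had a log2 ratio of 0.85 (0.44 to 1.27), an interval that reaches past 2-fold.

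**Figure D3:**
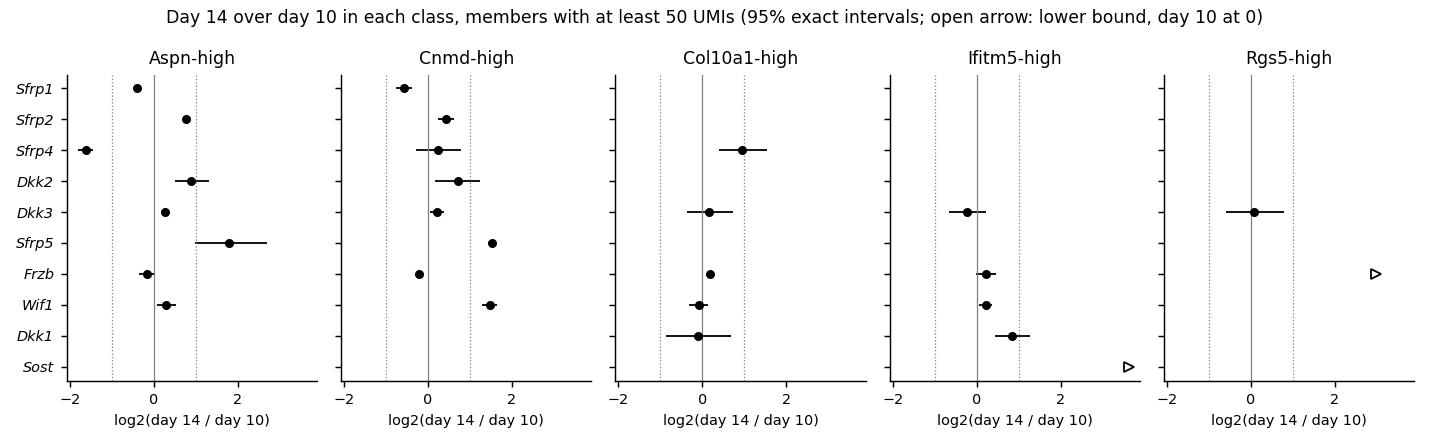
Log2 ratio of CPM, day 14 over day 10 (horizontal axis), for each antagonist with at least 50 UMIs in a class, with 95% exact intervals and dotted lines at 2-fold. Open arrows are lower bounds where day 10 had no UMI (Sost in Ifitm5-high and Frzb in Rgs5-high cells), and Sfrp4 in Aspn-high cells is the only point beyond 2-fold on the day 10 side.

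Whether antagonists exclude each other was asked cell by cell. Each cell of the 5 classes was thinned to 2000 UMIs, and the number of cells with both members of a pair was divided by the number expected from their separate shares. Of 45 pairs, 10 had at least 10 expected cells at day 10 and 19 at day 14. Pairs at 0.5 or less of the expected number were 3 of 10 at day 10, against 0.855% of all gene pairs tested, and 10 of 19 at day 14, against 0.954%. Pairs at 2 or more times the expected number were 2 of 10 at day 10, against 0.0874%, and 1 of 19 at day 14, against 0.0828%. These ratios largely restate the classes, since members of different classes are seldom in the same cell. The members were divided by class more often than all genes, so all gene pairs are no matched comparator. Counts within a class are given below.

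Frzb and Dkk3 were seldom seen together on both days when the classes were pooled. Within a class they were not called, at 0.87 and 0.95 in Aspn-high cells and 0.77 and 0.80 in Cnmd-high cells at days 10 and 14. Over the pooled classes they were seen together in 38 cells where 144 were expected at day 10, a ratio of 0.26 (0.19 to 0.36). At day 14 it was 65 cells where 266 were expected, a ratio of 0.24 (0.19 to 0.31). Of the cells with Frzb, 3.24% held Dkk3 at day 10, against 15.8% of the cells without. Sfrp5 and Dkk3 were the other pair below 0.5 on both days, with 2 cells against 14.98 expected and 6 against 41.4, ratios of 0.13 (0.02 to 0.48) and 0.14 (0.05 to 0.32). How many of all gene pairs were below 0.5 on both days was not counted. Without thinning Frzb and Dkk3 were at 0.60 and 0.56 and neither pair was called on both days. Over all cells without a Ptprc UMI, high for a marker or not, Sfrp5 and Dkk3 were not among the pairs called on both days.

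At day 14 the stromal Sfrp1 and Sfrp2 were both seldom seen with Wif1, at 0.26 (0.08 to 0.60) and 0.21 (0.08 to 0.46), and with Frzb, at 0.30 (0.20 to 0.45) and 0.30 (0.21 to 0.41). At day 10 their ratios with Frzb were 0.61 (0.43 to 0.85) and 0.60 (0.42 to 0.85), which is no call. The pair Sfrp4 and Frzb was at 0.22 (0.05 to 0.65) at day 10, from 3 cells, and at 0.82 (0.44 to 1.41) at day 14. Frzb and Wif1 were seen together near the expected number, at 0.96 (0.66 to 1.34) and 1.04 (0.80 to 1.33). Sfrp5 and Frzb were at 1.535 (1.15 to 2.01) at day 10 and 1.214 (0.898 to 1.605) at day 14, neither a call.

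The pairs at 2 or more joined members that were highest in Aspn-high cells. Sfrp2 and Dkk3 were seen in 72 cells where 23.7 were expected at day 10, a ratio of 3.04 (2.38 to 3.83), and at 1.96 (1.72 to 2.23) at day 14. Sfrp1 and Dkk3 were at 2.14 (1.60 to 2.80) and 1.72 (1.46 to 2.03). Sfrp1 and Sfrp2 were at 2.59 (2.10 to 3.16) at day 14 and had fewer than 10 expected cells at day 10. No pair was past 2 on both days.

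**Figure D4:**
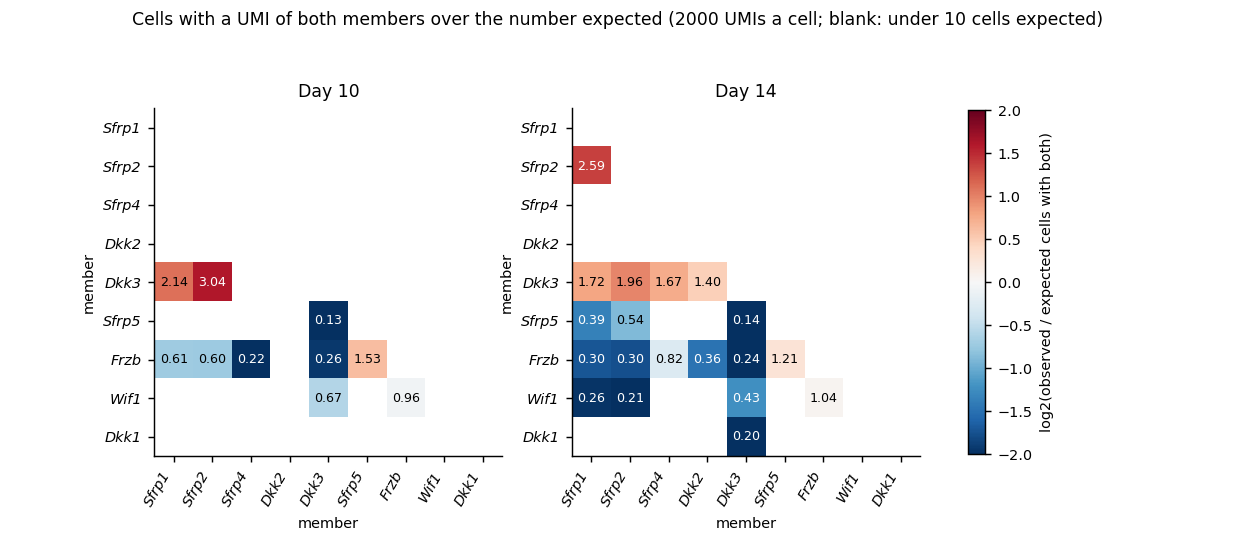
Cells with a UMI of both antagonists divided by the number expected, for each pair with at least 10 expected cells (blank otherwise), in the cells of the 5 classes thinned to 2000 UMIs, at day 10 and day 14. Blue marks pairs seen together too seldom, such as Frzb and Dkk3 at 0.26 and 0.24, and red pairs seen together too often, such as Sfrp2 and Dkk3 at 3.04 and 1.96.

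Within a class most pairs were near the expected number. Frzb and Dkk3 were at 0.87 (0.50 to 1.41) and 0.95 (0.70 to 1.26) in Aspn-high cells at days 10 and 14, and at 0.77 (0.47 to 1.19) and 0.80 (0.40 to 1.43) in Cnmd-high cells. Sfrp5 and Frzb were at 1.31 (0.98 to 1.72) and 0.97 (0.72 to 1.29) in Cnmd-high cells, so cells with Sfrp5 did not lack Frzb. Frzb and Wif1 were at 1.01 (0.57 to 1.63) in Ifitm5-high cells at day 14 and at 0.88 and 0.96 in Col10a1-high cells on the 2 days.

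There were 2 exceptions at day 14, each resting on few cells. Sfrp2 and Wif1 were seen in 5 Aspn-high cells where 13.4 were expected, a ratio of 0.37 (0.12 to 0.87). Frzb and Wif1 were seen in 6 Cnmd-high cells where 15.5 were expected, a ratio of 0.39 (0.14 to 0.84), and were at 0.81 (0.39 to 1.49) at day 10. In Aspn-high cells 1 of 11 pairs was thus called at day 14, beside 0.614% of gene pairs, and 0 of 5 at day 10, beside 0.582%. In Cnmd-high cells it was 1 of 4, beside 0.636%, and 0 of 5, beside 0.668%. Pairs at 2 or more were 1 of 5 in Aspn-high cells at day 10, beside 0.00972% of gene pairs, and 0 of 11 at day 14, beside 0.0101%. The 1 pair was Sfrp1 and Sfrp2, at 2.03 (1.43 to 2.80) at day 10 and at 1.43 (1.16 to 1.74), no call, at day 14. Sfrp2 and Dkk3 were at 1.08 (0.83 to 1.37) and 1.05 (0.92 to 1.19) inside the class, and Sfrp1 and Dkk3 at 0.96 (0.72 to 1.26) and 0.94 (0.79 to 1.10).

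Other genes divided the cells of a class too, and these were picked after their values were seen. Of the Aspn-high cells with Sfrp2 at day 10, 1.40% (0.170 to 4.96) held Bglap, the osteocalcin gene, against 11.2% (9.13 to 13.5) of those without, and 1.63% (0.707 to 3.19) against 4.09% (3.26 to 5.07) at day 14. Sp7, a transcription factor of osteoblasts, was seen in 1.19% (0.325 to 3.02) of the Aspn-high cells with Sfrp1 at day 14 and in 4.83% (3.96 to 5.84) of those without. Cxcl12, a chemokine of marrow stroma, went with Sfrp1 at day 14, in 33.0% (28.0 to 38.4) against 17.4% (15.8 to 19.1).

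In Cnmd-high cells Col10a1 was seen in 10.3% (5.41 to 17.2) of the cells with Sfrp5 at day 10 and in 20.8% (19.3 to 22.5) of the others, and in 18.6% (13.1 to 25.2) and 29.5% (27.1 to 32.0) at day 14. Ihh, a signal of prehypertrophic chondrocytes, was seen in 2.91% (0.951 to 6.65) and 8.86% (7.41 to 10.5) at day 14. Of the cells with Frzb, Ihh was seen in 13.4% (10.4 to 16.9) against 6.11% (4.78 to 7.68) of those without at day 14. Aspn was seen in 74.4% (63.2 to 83.6) of the Cnmd-high cells with Dkk3 and 40.5% (38.6 to 42.5) of those without at day 10, and in 64.6% (49.5 to 77.8) and 39.1% (36.6 to 41.6) at day 14. Igf1 was seen in 46.2% (34.8 to 57.8) and 17.7% (16.2 to 19.2) at day 10, and in 43.8% (29.5 to 58.8) and 21.9% (19.8 to 24.1) at day 14.

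A single antagonist often dominated a cell. Among cells with at least 5 member UMIs, Frzb had the most in 96.4% (93.5 to 98.3) of Col10a1-high cells at day 10 and 96.8% (95.2 to 98.0) at day 14. Dkk3 led in 60.4% (56.5 to 64.1) and 61.2% (58.9 to 63.5) of Aspn-high cells and Wif1 in 36 of 60 and in 61.7% (53.9 to 69.1) of Ifitm5-high cells. In these 3 classes the leading member had nearly the same share on both days.

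Other shares differed between the days. In Cnmd-high cells Frzb led in 85.2% (83.2 to 87.0) at day 10 and 63.4% (60.2 to 66.6) at day 14, while Sfrp5 went from 5.19% (4.06 to 6.51) to 19.9% (17.3 to 22.6). In Aspn-high cells Sfrp1 led in 14.1% (11.6 to 17.0) and then 7.21% (6.02 to 8.54), and Sfrp2 in 11.9% (9.51 to 14.6) and then 20.8% (18.9 to 22.8). One member held at least 80% of a cell's member UMIs in 86.1% and 88.0% of Col10a1-high cells, but in 42.6% and 38.1% of Aspn-high cells and 35.0% and 28.1% of Ifitm5-high cells. Cells with several antagonists were thus more frequent in these 2 classes than in the Col10a1-high class, at depths that differed between cells.

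**Figure D5:**
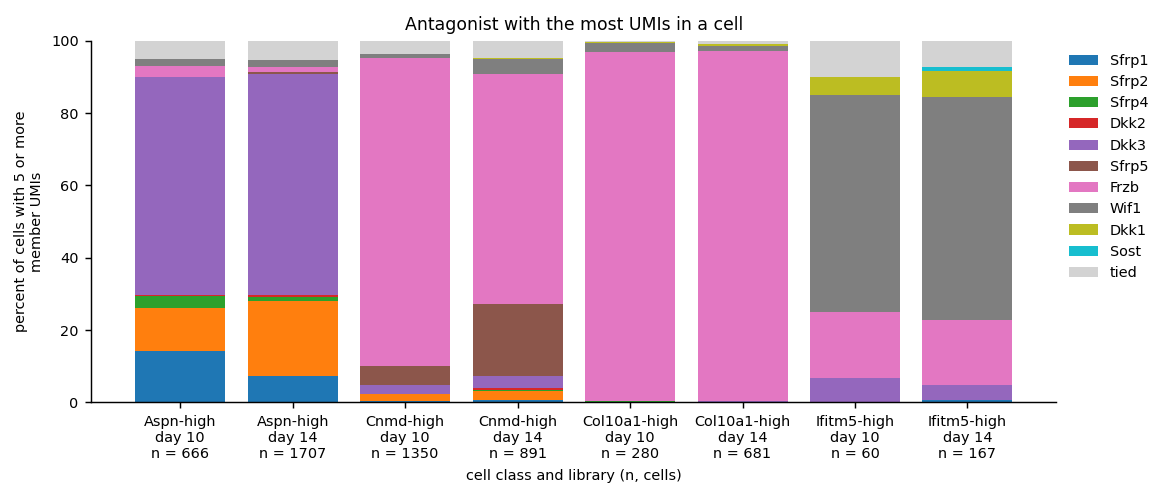
Share of cells (vertical axis, percent of cells with at least 5 member UMIs) in which each antagonist had the most UMIs, by class and library, with ties in light grey and the number of cells below each bar. Frzb fills the Col10a1-high bars at 96.4% and 96.8%, and Sfrp5 grows from 5.19% to 19.9% in the Cnmd-high bars; Rgs5-high cells are left out because only 3 and 6 of them qualified.

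The genes most like each member were sought over the 11 groups of class and library with at least 50 cells, by Pearson's r of log2(CPM + 10) among 4220 genes. The groups share libraries, so r is a description. The first gene for Dkk3 was Ptn (r = 0.99), a growth factor and one of the Aspn-high markers, followed by Mtch1 and Timp2. Genes like Sfrp2 included Fbn2 (r = 0.97), a fibrillin of elastic microfibrils, and Setd7, and Sfrp1 went with Tspan6 (r = 0.98), Fndc1 and Thbs4. Frzb went with S100a1 (r = 0.98), a calcium-binding protein, Pcolce2 and Mdfi, and Sfrp5 with Chil1 (r = 0.97), Rsl1d1 and H2-DMb1.

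Dkk1 went with Col13a1 (r = 0.98), a transmembrane collagen, Hs3st6 and Serpinb6b, and Wif1 with Fabp3 (r = 0.97), a fatty acid-binding protein, Gm41724 and 9130024F11Rik. Sfrp4 went with Ostn (r = 0.92), the osteocrin gene, S1pr1 and Cdkn2b, and Dkk2 with Pamr1 (r = 0.95), Mcrip1 and Matn2. For Sost, which was seen in 1 group only above 1 CPM, the second was Dkk1 (r = 0.78), between Gm26917 and Me2. Among the members themselves r was 0.96 for Sfrp1 and Sfrp2, 0.90 for Dkk1 and Wif1, and -0.65 for Frzb and Dkk3.

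The rest of the pathway was less divided by class than the antagonists, but more than all genes. At day 14, 3 of 7 Wnt ligands tested, 6 of 16 receptors and co-receptors, 4 of 7 genes of the R-spondin axis, 3 of 9 target genes and 4 of 6 other modulators were at least 2-fold higher in 1 class than in the next. For the antagonists it was 9 of 10, and for all 12512 genes tested 17.6%. Rspo2 and Rspo1, secreted agonists of the pathway, were 6.11 (4.98 to 7.56) and 4.91 (2.42 to 10.2) higher on the log2 scale in Aspn-high cells than in the next class. They stood at 12.6 and 5.70 CPM there, and their receptor Lgr5 was 2.40 (0.84 to 4.69) higher. The next class held only 6 UMIs of Rspo2, 1 of Rspo1 and 3 of Lgr5. The ligands Wnt16 and Wnt9a were also highest in Aspn-high cells (1.93 and 1.69), Wnt9a over 6 UMIs of the next class (0.55 to 3.15). Wnt4 was highest in Col10a1-high cells (1.5). The receptor Fzd1 was highest in Aspn-high (2.07), Fzd9 in Cnmd-high (1.61) and Fzd4 in Rgs5-high cells (3.22). Tcf7, a transcription factor and target of the pathway, was 4.64 (3.51 to 6.1) higher in Ifitm5-high cells, at 74.8 CPM, than in the next class, which held 6 UMIs. Apcdd1 was highest in Rgs5-high (1.47) and Nkd1 in Aspn-high cells (1.35). Of the other modulators, Igfbp4 (1.94) and Porcn (1.25) were highest in Aspn-high and Gpc4 (1.63) in Rgs5-high cells.

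Between the days the Wnt ligands of osteoblasts stood out beside the antagonists. In Ifitm5-high cells 3 of 6 ligands tested were at least 2-fold lower at day 14, beside 1.43% of all genes tested, and the list's median log2 ratio was -1.15. Wnt16 went from 20.5 to 5.68 CPM (log2 -1.85, -2.57 to -1.15), Wnt4 from 53.4 to 19.5 CPM (-1.45, -1.85 to -1.05) and Wnt11 from 33.4 to 12.3 CPM (-1.44, -1.95 to -0.93). Of the 5 antagonists tested in the same cells, Sost was the only call. Outside Ifitm5-high cells the calls were Wnt4 (-1.14) and Myc (-1.04) in Col10a1-high, Myc (-1.21) and Rspo2 (1.71) in Aspn-high and Fzd4 (-1.13) in Cnmd-high cells.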

How the data were processed

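Single-cell RNA-seq (10x Genomics 3' kit) was analysed for 3 libraries, 1 per day. The authors deposited raw UMI counts per gene and cell barcode, aligned to mm10 by Cell Ranger, whose version is 3.0 in the submitters' processing notes and 3.1.0 in the matrix header. Genes were matched by symbol, and positions taken from the GENCODE annotation of GRCm38. Cells with 500 to 5000 genes, at most 10% mitochondrial and 5% hemoglobin UMIs were kept, 7017, 6593 and 9853 cells; no doublet caller was run. Near the class limits lay, for example, 234 cells within 20% below and 160 within 20% above that of Aspn at day 10. No test was possible with 1 library per day: a difference was called at 2-fold over all genes with at least 50 UMIs in the 2 groups, in classes of at least 50 cells. Pairs used cells thinned to 2000 UMIs, leaving out shallower cells, and 10 or more expected cells. Named genes were all 10 members, the class markers, the 3 genes most like each member and the 3 largest ratios of each pathway list; lineage genes set beside members came from fixed lists and were picked from them after their values were seen. One gene that the rule names is not reported here. The members, classes and lists were chosen with earlier results of these data known. Python 3 scripts with numpy, scipy and pandas were tested on simulated data.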

Additional observations from a re-analysis of the deposited data

Results flagged for a closer look

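Sfrp4 went opposite ways in 2 classes between day 10 and day 14: its log2 ratio was -1.62 in Aspn-high and 0.94 in Col10a1-high cells (0.39 to 1.53), with both intervals clear of 0. The difference was not tested, since each day had 1 library. In Aspn-high cells at day 14, 20 of 2457 cells held 5 or more Sfrp4 UMIs, and in Col10a1-high cells 7 of 847. In the latter class 1 cell held 21 of the 155 UMIs. The reference cells with Ptprc stood at 10.1 CPM, from 10 UMIs in 4 cells.

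Barcodes outside the limits on cells, which entered no comparison, also held antagonists. The 10 members together stood there at 114 CPM at day 7, 336 CPM at day 10 and 428 CPM at day 14, over 2086, 2208 and 3131 barcodes, all above the level that a count of 3 allows (at most 0.0984 CPM).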

How the results depend on the processing

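No paired analysis was possible because each day had 1 library, and for the same reason no replicate could be left out. The 8 members with the same class on both days stayed between 6 and 8 under all 10 alternatives, at 7 with the class limit at 50% of the 99th percentile and 6 with at least 200 UMIs. The 6 day differences stayed between 4 and 7 except with no filter on low counts (19 of 49 tested) and with at least 200 UMIs (3 of 19); Sfrp5 and Wif1 in Cnmd-high cells were called under all 10. The 2 pairs seen together seldom on both days became 5 with the class limit at 10% and 1 with it at 50%. They became 1 without thinning (Sfrp4 and Sfrp5) and 4 where seen meant at least 2 UMIs. Over all cells without Ptprc, chosen after seeing the data, they became 4. Frzb and Dkk3 were among them in each of these except without thinning. Sfrp5 and Dkk3 were not among them with the limit at 50%, without thinning or over all cells without Ptprc. Thinned to fewer UMIs the count stayed 2, with Sfrp2 and Frzb in place of Sfrp5 and Dkk3. The 0 pairs seen together often on both days became 1 with the limit at 10% or 50%, with no limits on cells, with several-marker cells assigned, thinned to 5000 UMIs, without thinning or over all cells without Ptprc, and 2 where seen meant at least 2 UMIs. Fewer UMIs or cells per group leave fewer items to test under the stricter settings; for the other changes the cause was not tested. Of 250 values of a single day ratio, 190 of a class ratio and 311 of a pair under the alternatives, 29, 36 and 33 left the counting interval of the reported value and none of the called ones changed direction. Depth limits Sost, Dkk1 and Dkk2 most, with 7, 223 and 227 UMIs at day 10 in all cells without Ptprc.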

Other observations

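Over all cells without Ptprc, high for a marker or not, which was chosen after seeing the data, further genes split along the antagonists. Cyp1b1, a cytochrome P450 gene, was seen in 4.38% (3.09 to 6.02) of the cells with Sfrp2 at day 14 and 1.05% (0.846 to 1.29) of those without, but in 1 of 2029 cells with Frzb. Ly6a, the gene for the surface protein Sca-1, was seen in 22.8% (18.7 to 27.2) of the cells with Sfrp1 at day 10 and 5.74% (5.17 to 6.35) of those without, and Acta2, the smooth muscle actin gene, in 49.9% (44.8 to 54.9) and 14.95% (14.1 to 15.9).

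Abi3bp, an extracellular matrix protein, was seen at day 14 in 59.4% (46.9 to 71.1) of the 69 cells with Dkk2 and 24.4% (23.5 to 25.2) of those without, and in 0 of 76 cells with Dkk1, which at this depth of 2000 UMIs allows up to 4.74% of cells with a UMI and does not limit how many express the gene. Runx2, a transcription factor of osteoblasts, was seen in 36.8% (26.1 to 48.7) of those Dkk1 cells and 18.6% (17.9 to 19.4) of the others. The tendon gene Tnmd was seen in 26.8% (23.8 to 30.0) of the cells with Sfrp2 and 10.0% (9.40 to 10.7) of those without at day 14, and Igf1 in 67.7% (63.5 to 71.7) of the cells with Sfrp1 and 29.5% (28.6 to 30.5) of those without. Scx, a tendon transcription factor, was seen in 24.6% (22.7 to 26.7) of the cells with Dkk3 and 8.54% (7.92 to 9.19) of those without.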
